A study of Mus musculus with 14 samples.

Results

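Tumours treated with MYCi975 and TMP195 together were compared with vehicle tumours across the transcriptome. The comparison used 7 of the 14 libraries of the series, namely the 3 combination and the 4 vehicle libraries, and 13711 of the 21152 genes of the table, kept because their average across the series exceeded the table's lowest value, 4.047, by over 1. The tumours came from LLC1, the Lewis lung carcinoma line of the mouse, carried by mice that were dosed for 16 days. Vehicle animals received DMSO (4 libraries). The single-agent groups received MYCi975 at 50 mg/kg (4 libraries) or TMP195 at 50 mg/kg (3 libraries), and the combination group received both compounds (3 libraries). The sources used here do not give the doses within the combination, the route, or the strain, sex and age of the hosts. LLC1 is a single line, so the tumour cells of all groups share its genotype, while that of the host cells is not given. The protocol names an enriched tumour population as the source of RNA, and the design text a cell suspension of whole tumour. The labels do not tie libraries to separate animals, so p-values measure the spread between libraries, which may be technical in part.

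MYC is a transcription factor that binds DNA as a dimer with MAX, often at the E-box, and raises the expression of genes for ribosome assembly, nucleotide synthesis and mitochondrial function. HDAC4, HDAC5, HDAC7 and HDAC9 form class IIa of the histone deacetylases, have little catalytic activity of their own and act mainly as corepressors, above all of the MEF2 transcription factors. MYCi975 is a small molecule that binds MYC, and TMP195 occupies the acetyl-lysine site of class IIa deacetylases. A tumour of this kind also holds host leukocytes, vessels and stroma, and interferons from such cells drive antiviral genes and antigen presentation in the cells around them.

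Values are expression after a variance-stabilising transformation, on a log2 scale on which a difference of 1 is about a 2-fold difference for genes well above the floor, and less than the true fold for genes near it. A gene is called separated here when all 3 combination libraries lay on the same side of all 4 vehicle libraries. In all, 384 genes (2.8%) were separated higher with the combination and 449 (3.27%) separated lower, together 833 (6.08%). In limma's test over all genes, 0 of 13711 passed an adjusted p of 0.05, the smallest adjusted p was 0.992, and 470 genes (3.43%) had an unadjusted p under 0.05, of which 285 (2.08%) were higher and 185 (1.35%) lower. Differences were above 0 for 49.7% and below 0 for 50.3% of genes. No gene named below passed that test, so each is given as a value and not as a change. Separation carries no test, and it does not say how far apart the groups lay. For groups of 3 and 4 libraries that do not differ, shares of about the size seen arise by chance in each direction. The counts of separated genes are thus no evidence of a treatment effect. The 3.43% of genes with an unadjusted limma p under 0.05 was also below the share of 0.05 that chance gives on average. This depended on the setting. With only the 7 libraries compared the count was 856 genes, and with library weights 769. Without MYCi975 replicate 2 it was 725, and each of these counts lies above that share of the 13711 genes. The nearest libraries of the groups were at least 0.1 apart for 123 of the 384 higher and 150 of the 449 lower genes, and at least 0.25 apart for 20 and 27. The split of directions depended on scaling, with 420 higher and 414 lower after centring each library on its median and 463 higher and 399 lower after quantile normalization. The count of 470 was 234 without combination replicate 1 and 725 without MYCi975 replicate 2. The shares of all genes separated, 2.8% higher and 3.27% lower, stand as background to every list described below. Genes of a list can rise and fall together across the same libraries. Members below 0 or separated are therefore not independent observations, in any list. With any 1 of the 7 libraries left out, 595 to 1096 of all genes were separated higher and 651 to 1146 lower, since fewer libraries are easier to separate, and counts for a list without a library are larger for that reason too.

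**Figure D1:**
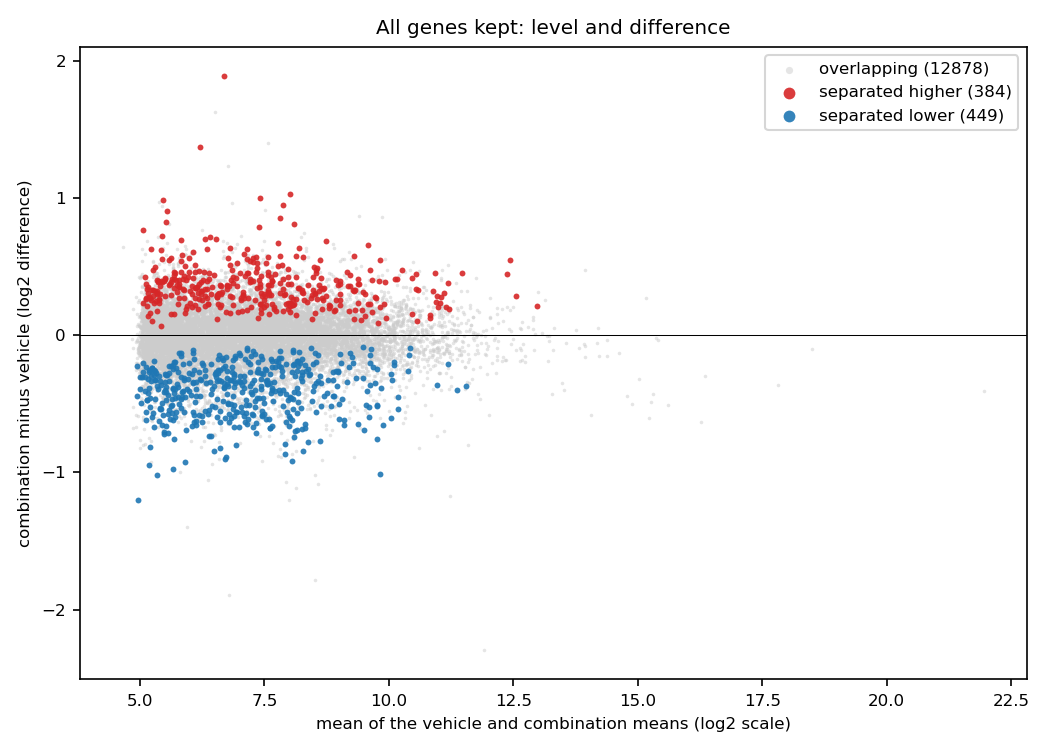
Log2 difference of the combination from vehicle (vertical axis) against the mean level of the gene (horizontal axis, log2 scale) for the 13711 genes, with 384 genes separated higher in red, 449 separated lower in blue and overlapping genes in grey. The separated genes lie at all levels, with 3 in each direction differing by more than 1.

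The median difference was 0.34 over the genes separated higher and -0.38 over those separated lower, against -0.002 over all genes. Differences beyond 1 were held by 3 genes separated higher and 3 separated lower. The higher genes were Adcy6, described below, and the predicted genes Gm43546 (5.74 with vehicle and 7.63 with the combination, means) and Gm48128 (5.52 with vehicle and 6.89 with the combination). The lower genes were Trex1, described below, Rgs1 (10.32 with vehicle and 9.31 with the combination, means), which encodes a regulator of G-protein signalling in leukocytes, and Nos1 (5.85 with vehicle and 4.84 with the combination), the neuronal nitric oxide synthase. For Nos1 the nearest libraries of the groups differed by only 0.0008.

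Genes with the widest gap below vehicle included several that are known from leukocytes or from the interferon response. Trem1 encodes a receptor that amplifies inflammatory signals on neutrophils and monocytes. Its level was 7.61, 7.48, 7.55 and 7.47 in the vehicle libraries and 6.73, 7.08 and 7.06 in the combination libraries. Every combination library thus lay at least 0.39 below the vehicle libraries, and the group means differed by -0.57 (95% interval -1.21 to 0.07, limma adjusted p = 0.992). Slfn2, a Schlafen family gene induced by interferon, was 8.73, 8.63, 8.88 and 8.54 in the vehicle libraries and 7.49, 8.12 and 7.96 in the combination libraries. The groups stood 0.42 apart at their nearest libraries, with a difference of -0.84 (-1.69 to 0.01). Clec4a3, a C-type lectin receptor of myeloid cells, was 6.57, 6.82, 6.99 and 6.66 in the vehicle libraries and 5.81, 6.20 and 6.08 in the combination libraries, a difference of -0.73 (-1.27 to -0.20). Combination replicate 1 had the lowest value of all 7 libraries for each of these 3 genes.

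Herc6, which encodes the mouse ligase that attaches the ubiquitin-like protein ISG15, was 8.34, 8.88, 8.37 and 8.43 in the vehicle libraries and 6.90, 7.99 and 7.89 in the combination libraries. Its difference was -0.92 (-1.54 to -0.30), with combination replicate 1 the lowest library. Phf11a, a PHD finger gene of an interferon-inducible family, was 5.42, 5.37, 5.94 and 5.47 in the vehicle libraries and 4.85, 5.05 and 4.96 in the combination libraries. Casp4, the sensor of intracellular lipopolysaccharide, was 7.66, 7.34, 7.40 and 7.50 in the vehicle libraries and 6.62, 6.93 and 7.03 in the combination libraries. All 3 combination libraries of Phf11a and Casp4 lay below vehicle, with mean differences of -0.60 and -0.61. Chil3, which encodes the chitinase-like protein Ym1 of monocytes and macrophages, was 7.74, 7.94, 8.06 and 7.65 in the vehicle libraries and 7.18, 7.23 and 7.28 in the combination libraries, a difference of -0.61 (-1.21 to -0.02). Ms4a7, a membrane protein of macrophages, was 6.94, 6.94, 7.50 and 6.71 in the vehicle libraries and 6.32, 6.19 and 6.09 in the combination libraries, a difference of -0.83 (-1.40 to -0.25).

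Trex1, the exonuclease that clears DNA from the cytosol, had the smallest p of all lower genes that the naming rule admits (difference -1.20, SE 0.27, limma adjusted p = 0.992). Its level was 5.40, 5.52, 5.81 and 5.47 in the vehicle libraries and 4.05, 4.96 and 4.05 in the combination libraries. Combination replicates 1 and 3 were listed at the floor, so the size of the difference depends on where the floor lies. Ctla4, the inhibitory receptor of activated and regulatory T cells, was 5.95, 5.58, 5.93 and 5.57 in the vehicle libraries and 5.15, 5.18 and 5.21 in the combination libraries. Treml2, another receptor of the TREM family, was 6.05, 5.79, 5.96 and 5.91 in the vehicle libraries and 4.89, 5.43 and 5.33 in the combination libraries. In both the nearest libraries of the groups lay 0.36 apart, without overlap.

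Other genes of the widest gaps have roles outside immunity as well. Fabp5, a cytosolic carrier of fatty acids, was 8.77, 8.90, 9.18 and 9.18 in the vehicle libraries and 7.93, 8.41 and 8.37 in the combination libraries (difference -0.77, -1.31 to -0.23). Sema4a, a semaphorin of immune and neural tissue, was 7.72, 6.86, 6.85 and 7.001 in the vehicle libraries and 6.47, 6.47 and 6.49 in the combination libraries. Its vehicle replicate 1 lay well above the other vehicle libraries, while the combination libraries had a standard deviation of 0.01. Hmgn5, a nucleosome-binding protein, was 8.26, 8.55, 8.27 and 8.65 in the vehicle libraries and 7.86, 7.87 and 7.85 in the combination libraries, and Pik3ip1, an inhibitor of phosphoinositide 3-kinase, was 5.69, 5.62, 5.65 and 5.74 in the vehicle libraries and 5.10, 5.12 and 5.21 in the combination libraries. Both showed tight combination values under a separate group of vehicle values, with differences of -0.57 and -0.53.

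Genes with the widest gap above vehicle encoded signalling proteins, receptors and proteins of several other functions. Adcy6, an adenylyl cyclase that makes cyclic AMP, was 7.85, 7.84, 7.51 and 6.76 in the vehicle libraries and 8.81, 8.41 and 8.34 in the combination libraries. The difference was 1.03 (0.32 to 1.75, limma adjusted p = 0.992), with vehicle replicate 4 far below the other vehicle libraries. Rapgef3, the exchange factor EPAC1 that cyclic AMP activates, was 6.42, 6.31, 5.97 and 5.98 in the vehicle libraries and 7.04, 6.51 and 7.05 in the combination libraries. It was named for its small p (difference 0.70, 0.34 to 1.06), and its groups lay 0.095 apart. Mrc2, a receptor that takes up collagen, was 7.89, 7.70, 7.84 and 7.31 in the vehicle libraries and 8.51, 8.34 and 8.64 in the combination libraries (difference 0.81, 0.25 to 1.38). Tgfbr3, the co-receptor betaglycan of transforming growth factor beta, was 11.28, 11.26, 11.16 and 11.26 in the vehicle libraries and 11.94, 11.53 and 11.60 in the combination libraries (difference 0.45, 0.08 to 0.82).

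Nek3, a kinase of the NIMA family, had the smallest p of all higher genes that the naming rule admits (limma adjusted p = 0.992). It was 4.83, 4.83, 4.90 and 5.09 in the vehicle libraries and 5.51, 5.53 and 5.57 in the combination libraries, a low gene whose 3 combination libraries had a standard deviation of 0.03. Fkbp5, a co-chaperone of the glucocorticoid receptor that glucocorticoids induce, was 8.47, 8.58, 8.50 and 8.04 in the vehicle libraries and 8.94, 9.28 and 9.03 in the combination libraries (difference 0.68, 0.20 to 1.17). Grb10, an adaptor that restrains insulin and IGF receptor signalling, was 7.49, 7.32, 7.54 and 7.76 in the vehicle libraries and 8.13, 8.11 and 8.07 in the combination libraries. Errfi1, a feedback inhibitor of the EGF receptor, was 9.92, 10.04, 10.05 and 10.05 in the vehicle libraries and 10.34, 10.41 and 10.73 in the combination libraries. The combination libraries stood 0.32 above the highest vehicle library for Grb10 and 0.29 above it for Errfi1. Tspan9, a tetraspanin, was 7.25, 7.17, 7.71 and 7.38 in the vehicle libraries and 8.37, 8.13 and 8.20 in the combination libraries (difference 0.85, 0.39 to 1.32).

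The other members of the 15 widest gaps above vehicle were Dennd5b, a regulator of Rab proteins (difference 0.79), Csnk1g3, a casein kinase (0.41), the immunoglobulin superfamily gene Igsf10 (0.95), the transporter Slc22a15 (0.39), Rims2, a scaffold of presynaptic release sites (0.72), the dystrobrevin Dtnb (0.36) and the transcription factor Pax9 (0.46). Csnk1g3 was 9.19, 9.20, 9.16 and 9.14 in the vehicle libraries and 9.61, 9.59 and 9.54 in the combination libraries, with little spread in either group. Igf2, the growth factor, ranked second by p among the higher genes (difference 0.97, 0.47 to 1.46) but was not separated. Its levels were 4.83, 4.80, 4.55 and 5.44 with vehicle and 6.08, 6.13 and 5.41 with the combination, so vehicle replicate 4 overlapped combination replicate 3. Plxnd1, a semaphorin receptor, was among the 5 lower genes with the smallest p but was not separated (difference -1.07, -1.78 to -0.36). Its combination replicate 3, at 8.47, lay among the vehicle libraries.

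**Figure D2:**
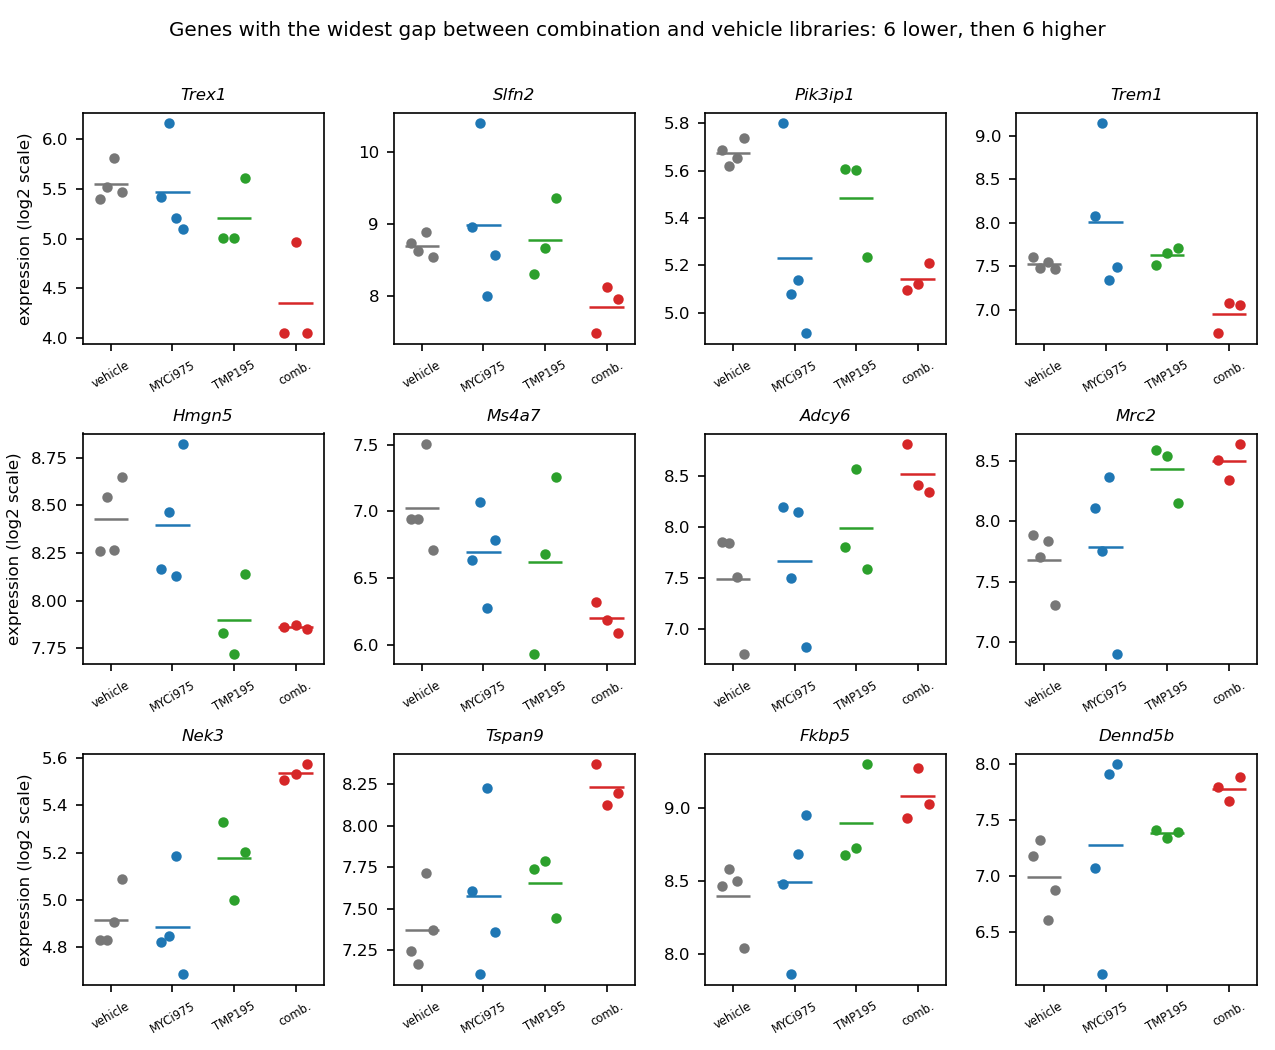
Expression (vertical axis, log2 scale) in each library of the 4 groups, with a bar at the group mean, for the 6 lower genes and the 6 higher genes with the widest gap between vehicle and combination. In every panel the red combination points lie on one side of the grey vehicle points, while a single-agent library can lie beyond both, as for Trem1, where MYCi975 replicate 2 reached 9.14.

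Promoter sequences of separated genes are shown for the letters they share with known binding motifs. The sequences are from RefSeq (build GRCm38.p6), run 5′ to 3′ from 250 bases before to 50 bases after the annotated start on the gene's own strand, and are in lower case. Capitals mark ACTTCCT, the reverse complement of AGGAAGT, in the first 3. AGGAAGT is a motif of the type of PU.1, a myeloid and lymphoid factor, and a match does not say which factor binds there. They mark a match to the interferon-stimulated motif (GAAA, any 2 bases, GAAA) in Phf11a and the MYC E-box CACGTG in Fkbp5. Other matches are left in lower case, among them an ACTTCCT in Phf11a. The window of Trem1 is chr17:48232489-48232788 on the plus strand, Slfn2 at chr11:83064862-83065161 on the plus strand, Chil3 at chr3:106167515-106167814 on the minus strand, Phf11a at chr14:59297473-59297772 on the minus strand and Fkbp5 at chr17:28486100-28486399 on the minus strand.
Trem1: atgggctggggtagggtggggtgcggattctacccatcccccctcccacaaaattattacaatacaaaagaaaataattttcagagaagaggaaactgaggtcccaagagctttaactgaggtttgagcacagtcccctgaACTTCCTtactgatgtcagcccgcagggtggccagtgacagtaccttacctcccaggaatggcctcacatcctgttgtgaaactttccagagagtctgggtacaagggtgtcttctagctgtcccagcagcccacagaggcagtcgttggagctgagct
Slfn2: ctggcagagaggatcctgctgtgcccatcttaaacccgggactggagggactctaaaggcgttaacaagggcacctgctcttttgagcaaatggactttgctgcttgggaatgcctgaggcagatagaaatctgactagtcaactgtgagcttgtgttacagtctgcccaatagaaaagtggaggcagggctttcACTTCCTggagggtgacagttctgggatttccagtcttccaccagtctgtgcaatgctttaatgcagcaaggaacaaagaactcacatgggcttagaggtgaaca
Chil3: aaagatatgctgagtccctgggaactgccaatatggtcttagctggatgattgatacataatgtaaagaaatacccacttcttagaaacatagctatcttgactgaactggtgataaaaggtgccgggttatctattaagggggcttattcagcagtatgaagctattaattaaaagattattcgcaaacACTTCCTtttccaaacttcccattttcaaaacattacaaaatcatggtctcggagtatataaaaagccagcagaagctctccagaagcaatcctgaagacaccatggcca
Phf11a: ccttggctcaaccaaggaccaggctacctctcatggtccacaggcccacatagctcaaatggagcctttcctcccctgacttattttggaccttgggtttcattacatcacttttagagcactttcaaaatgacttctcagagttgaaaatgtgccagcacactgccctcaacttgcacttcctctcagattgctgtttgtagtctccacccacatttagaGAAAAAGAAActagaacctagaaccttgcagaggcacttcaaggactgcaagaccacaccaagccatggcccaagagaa
Fkbp5: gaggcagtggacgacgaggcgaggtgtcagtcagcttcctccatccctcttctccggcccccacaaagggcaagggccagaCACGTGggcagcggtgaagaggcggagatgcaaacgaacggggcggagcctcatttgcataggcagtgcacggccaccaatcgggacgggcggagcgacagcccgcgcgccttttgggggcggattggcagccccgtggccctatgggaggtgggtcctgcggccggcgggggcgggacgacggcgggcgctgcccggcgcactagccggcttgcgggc

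A promoter of 300 bases was found for 9560 of the genes kept, among them 250 of the separated higher and 338 of the separated lower genes. Motifs were searched on both strands. CACGTG was in 8.4% of the promoters of genes separated higher, 9.17% of those separated lower and 10.2% of all. The AP-1 motif TGACTCA was in 5.6%, 5.62% and 3.74%, the NF-Y motif CCAAT in 38%, 33.7% and 38.9%, and the TATA box TATAAA in 4%, 10.7% and 7.47%. The motif AGGAAGT and the interferon-stimulated motif were added after the separated genes had been seen. AGGAAGT was in 6.8% of promoters of genes separated higher, 17.8% of those separated lower and 9.57% of all, and the interferon-stimulated motif in 1.2%, 5.92% and 3.4%. A match to AGGAAGT and a match to the interferon-stimulated motif can share no more than an edge letter. Of 19 promoters of type I interferon response genes, 11 (57.9%) held the interferon-stimulated motif, which is a property of the list. AGGAAGT was in 0 of these 19. Base composition differed as well, with a median GC content of 62.3% in promoters of genes separated higher, 57.2% in those separated lower and 60.7% in all. A match is a run of letters in this window and no evidence of binding, and none of these shares was tested.

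Genes of the type I interferon response, which includes many antiviral effectors, were lower on average with the combination. Of 26 genes kept, 26 had a difference below 0, against 50.3% of all genes, and the median was -0.46. None passed the test, and 9 (34.6%) were separated lower against 3.27% of all genes, namely Oasl2, Rtp4, Oasl1, Ifit3, Oas1a, Ifit2, Oas3, Cmpk2 and Irf7. The members were measured in the same libraries, so these counts are not those of independent genes. Oasl2, an oligoadenylate synthetase-like protein, was 8.75, 8.49, 8.69 and 8.59 in the vehicle libraries and 7.63, 8.28 and 8.04 in the combination libraries. Rtp4, a chaperone-like protein induced by interferon, was 7.67, 7.20, 7.82 and 7.21 in the vehicle libraries and 6.65, 7.03 and 6.80 in the combination libraries. Irf7, the factor that amplifies interferon production, was 7.34, 6.93, 7.73 and 7.01 in the vehicle libraries and 6.87, 6.73 and 6.92 in the combination libraries. The combination libraries of Oasl2 ran from low in replicate 1 to only 0.21 below vehicle in replicate 2, and those of Irf7 lay just under the lowest vehicle library. Mx1, an antiviral GTPase of the same list, was 6.23, 5.68, 7.38 and 6.29 in the vehicle libraries and 5.59, 6.01 and 6.22 in the combination libraries and overlapped. Isg15, the ubiquitin-like modifier, was 5.47, 5.51, 5.79 and 5.86 in the vehicle libraries and 5.45, 5.50 and 5.50 in the combination libraries, a difference of -0.17 with overlap. The median of the list stayed between -0.51 and -0.35 when any of the 7 libraries was left out, and the count of separated genes was 18 without vehicle replicate 2 and 14 without combination replicate 3. Members of the Ifit and Oas families have near-identical copies, so their reads can be divided between copies.

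Interferon gamma targets and the chemokines that draw T cells through CXCR3 were also below vehicle on average, with little separation. All 20 genes kept were below 0 (median -0.62), and 1 (5%, against 3.27% of all genes) was separated lower, Irf8, a factor of monocyte and dendritic cell development. Cxcl9, a CXCR3 ligand, was 9.11, 8.08, 9.30 and 8.24 in the vehicle libraries and 6.54, 8.40 and 7.78 in the combination libraries. Gbp2, a guanylate-binding protein, was 11.42, 10.56, 11.54 and 10.53 in the vehicle libraries and 9.06, 10.90 and 10.61 in the combination libraries. In both of these, combination replicate 1 was the lowest of the 7 libraries, while replicate 2 lay within the vehicle range. Irf8 itself was 7.58, 7.06, 7.51 and 7.36 in the vehicle libraries and 6.54, 7.04 and 7.02 in the combination libraries, a difference of -0.51 (-1.08 to 0.05). Without combination replicate 1 the list median was -0.30, and the separated genes numbered 8 without combination replicate 2 and 3 without vehicle replicate 2 or 4.

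Antigen presentation genes were below vehicle on average as well. For MHC class I and antigen processing, 17 of 18 genes were below 0 (median -0.43), and 1 (5.56%, against 3.27% of all genes) was separated lower, H2-D1, a classical class I heavy chain at 11.71, 11.52, 11.57 and 11.47 in the vehicle libraries and 10.996, 11.36 and 11.16 in the combination libraries. Without combination replicate 1 the median was -0.23, and the separated genes numbered 9 without combination replicate 2, 5 without vehicle replicate 2, 3 without vehicle replicate 4 and 2 without combination replicate 3. B2m, the class I light chain, was 12.29, 11.69, 12.24 and 11.80 in the vehicle libraries and 11.12, 11.75 and 11.87 in the combination libraries and overlapped through combination replicates 2 and 3. For MHC class II, 8 of 8 genes were below 0 (median -0.77) and 0 were separated, although 4 were without vehicle replicate 2, 3 without combination replicate 2 and 1 without vehicle replicate 4. H2-Ab1, a class II beta chain, was 9.56, 8.39, 9.69 and 8.86 in the vehicle libraries and 7.01, 8.63 and 8.49 in the combination libraries. Cd74, the invariant chain, was 10.22, 9.19, 10.24 and 9.30 in the vehicle libraries and 7.86, 9.74 and 8.95 in the combination libraries. Vehicle replicates 1 and 3 were the highest libraries and combination replicate 1 the lowest, while combination replicate 2 lay above vehicle replicate 2 in both genes. The class II median was -0.42 without combination replicate 1 and -1.01 without vehicle replicate 2. H2 genes share sequence between copies, and single members are uncertain.

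Leukocyte markers were lower beside these groups. In bulk tumour RNA, fewer cells of a type and less RNA per cell cannot be told apart. Of 8 general leukocyte markers, all 8 were below 0 (median -0.51) and 1 (12.5%, against 3.27% of all genes) was separated lower, Laptm5, a lysosomal membrane protein at 9.98, 9.37, 9.94 and 9.56 in the vehicle libraries and 8.75, 9.21 and 9.23 in the combination libraries. Ptprc, which encodes the leukocyte antigen CD45, was 10.97, 10.26, 10.68 and 10.49 in the vehicle libraries and 9.65, 10.35 and 10.12 in the combination libraries, a difference of -0.56 (-1.35 to 0.23) with overlap of combination replicate 2. Separated leukocyte markers numbered 6 without vehicle replicate 2 and 5 without combination replicate 2. The mean level of the list, centred on each gene's mean over all libraries, ran from -0.34 to 0.38 over the vehicle libraries and from -0.81 to -0.27 over the combination libraries. The part of leukocyte content in the interferon and antigen presentation values was not tested.

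Monocyte markers were split. Of 8 genes, 6 were below 0 (median -0.61), 4 (50%) were separated lower, among them Chil3, Ccr2 and Ly6c2, and 1 was separated higher, Vcan. Ccr2, the receptor that brings monocytes out of the marrow, was 10.06, 9.26, 10.04 and 9.99 in the vehicle libraries and 9.14, 9.12 and 9.17 in the combination libraries, and its lowest vehicle library lay 0.08 above the combination. Ly6c2, the surface antigen of inflammatory monocytes, was 5.89, 6.05, 6.75 and 6.41 in the vehicle libraries and 5.22, 5.83 and 5.70 in the combination libraries. The differences were -0.69 for Ccr2 and -0.69 for Ly6c2, and combination replicate 1 was the lowest library for Ly6c2 but not for Ccr2. Vcan, a proteoglycan that stromal and tumour cells make too, was 11.86, 12.38, 12.001 and 12.35 in the vehicle libraries and 12.84, 12.38 and 12.56 in the combination libraries, and its nearest libraries were equal at the precision printed. Without combination replicate 1 the median of the list was -0.29.

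Macrophage markers gave no single direction. Of 14 genes, 10 were below 0 (median -0.26), and 1 (7.14%) was separated in each direction, against 2.8% higher and 3.27% lower of all genes. Cd68, a lysosomal glycoprotein, was separated lower at 8.01, 8.05, 8.24 and 7.99 in the vehicle libraries and 7.50, 7.96 and 7.56 in the combination libraries. Mertk, a receptor for the uptake of dying cells, was separated higher at 7.65, 7.47, 7.66 and 7.17 in the vehicle libraries and 7.79, 7.77 and 7.78 in the combination libraries. Adgre1, an adhesion receptor of macrophages, was 6.96, 7.15, 7.91 and 7.10 in the vehicle libraries and 7.41, 7.39 and 7.05 in the combination libraries, a difference of 0.01. Complement genes C1qa, C1qb and C1qc differed by -0.52, -0.54 and -0.39 and overlapped. Without combination replicate 2 the median was -0.42 and 4 genes were separated lower, while 3 were without vehicle replicate 2, 2 were without vehicle replicate 4, and 2 were separated higher without combination replicate 3. For neutrophils, 8 of 8 genes were below 0 (median -0.29, and -0.18 without combination replicate 1) with 0 separated (2 lower without vehicle replicate 3 or combination replicate 3), and S100a8, an alarmin subunit, was 9.47, 9.13, 8.69 and 9.73 in the vehicle libraries and 8.79, 8.80 and 9.13 in the combination libraries.

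T cell markers were lower on average with the combination. Of 13 genes kept, 13 were below 0 (median -0.40) and 3 (23.1%, against 3.27% of all genes) were separated lower, the T cell receptor kinase Lck, the receptor chain Cd247 and the adhesion molecule Cd2. Lck was 5.59, 5.46, 5.66 and 6.06 in the vehicle libraries and 5.19, 5.23 and 4.79 in the combination libraries, a difference of -0.63 (-1.05 to -0.20). Without combination replicate 2 the separated T cell markers numbered 6. All 13 are low genes, as none was left with a filter of 2 above the floor, so their differences can understate the true fold. Cd8a, the co-receptor of cytotoxic T cells, was 6.61, 5.87, 5.31 and 6.18 in the vehicle libraries and 5.33, 5.91 and 5.27 in the combination libraries and overlapped. Of 7 natural killer and cytotoxic genes kept, 7 were below 0 (median -0.58, and -0.36 without combination replicate 1) and 1 (14.3%) was separated lower, Gzmb, a cytotoxic protease at 7.14, 6.999, 7.14 and 7.32 in the vehicle libraries and 5.83, 6.95 and 5.97 in the combination libraries. The separated genes of that list numbered 5 without combination replicate 2, 4 without vehicle replicate 1 or 2, and 2 without combination replicate 3. Klrk1, the receptor NKG2D, was 7.39, 6.30, 7.03 and 6.89 in the vehicle libraries and 5.79, 6.32 and 5.79 in the combination libraries, with combination replicate 2 just above vehicle replicate 2. Erg, a transcription factor of endothelium, was separated lower at 5.33, 5.20, 5.54 and 5.65 in the vehicle libraries and 4.85, 5.19 and 4.86 in the combination libraries, the only separated gene of 10 endothelial markers, 9 of which were below 0 (median -0.26, and -0.17 without combination replicate 3). Separated endothelial markers numbered 3 without vehicle replicate 4 or combination replicate 2, and 2 without vehicle replicate 2. Cpa3, a mast cell protease, was separated higher at 4.96, 5.25, 5.05 and 5.39 in the vehicle libraries and 5.45, 6.07 and 5.63 in the combination libraries, as 1 of 4 mast cell markers (2 without vehicle replicate 4 or combination replicate 1).

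Inflammatory cytokines and chemokines lay below vehicle on average, with wide spread. Of 21 genes, 19 were below 0 (median -0.34, -0.19 without combination replicate 2 and -0.21 without combination replicate 1) and 2 (9.52%, against 3.27% of all genes) were separated lower, Ccl5 and Cxcl2. Cxcl2, a neutrophil attractant, was 10.79, 9.85, 10.12 and 10.06 in the vehicle libraries and 9.53, 9.32 and 9.79 in the combination libraries. Ccl5, a T cell and monocyte attractant, was 6.81, 6.10, 6.04 and 6.57 in the vehicle libraries and 5.66, 5.97 and 5.76 in the combination libraries. Il1b, the cytokine interleukin 1 beta, was 11.01, 10.14, 10.76 and 10.57 in the vehicle libraries and 9.94, 9.97 and 10.40 in the combination libraries, and Nos2, the inducible nitric oxide synthase, 9.19, 8.46, 8.63 and 8.26 in the vehicle libraries and 7.72, 8.72 and 9.34 in the combination libraries. Separated genes numbered 9 without combination replicate 3 and 5 without vehicle replicate 2. Il1b and Nos2 overlapped, and for Nos2 combination replicate 3 was the highest of the 7 libraries.

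**Figure D3:**
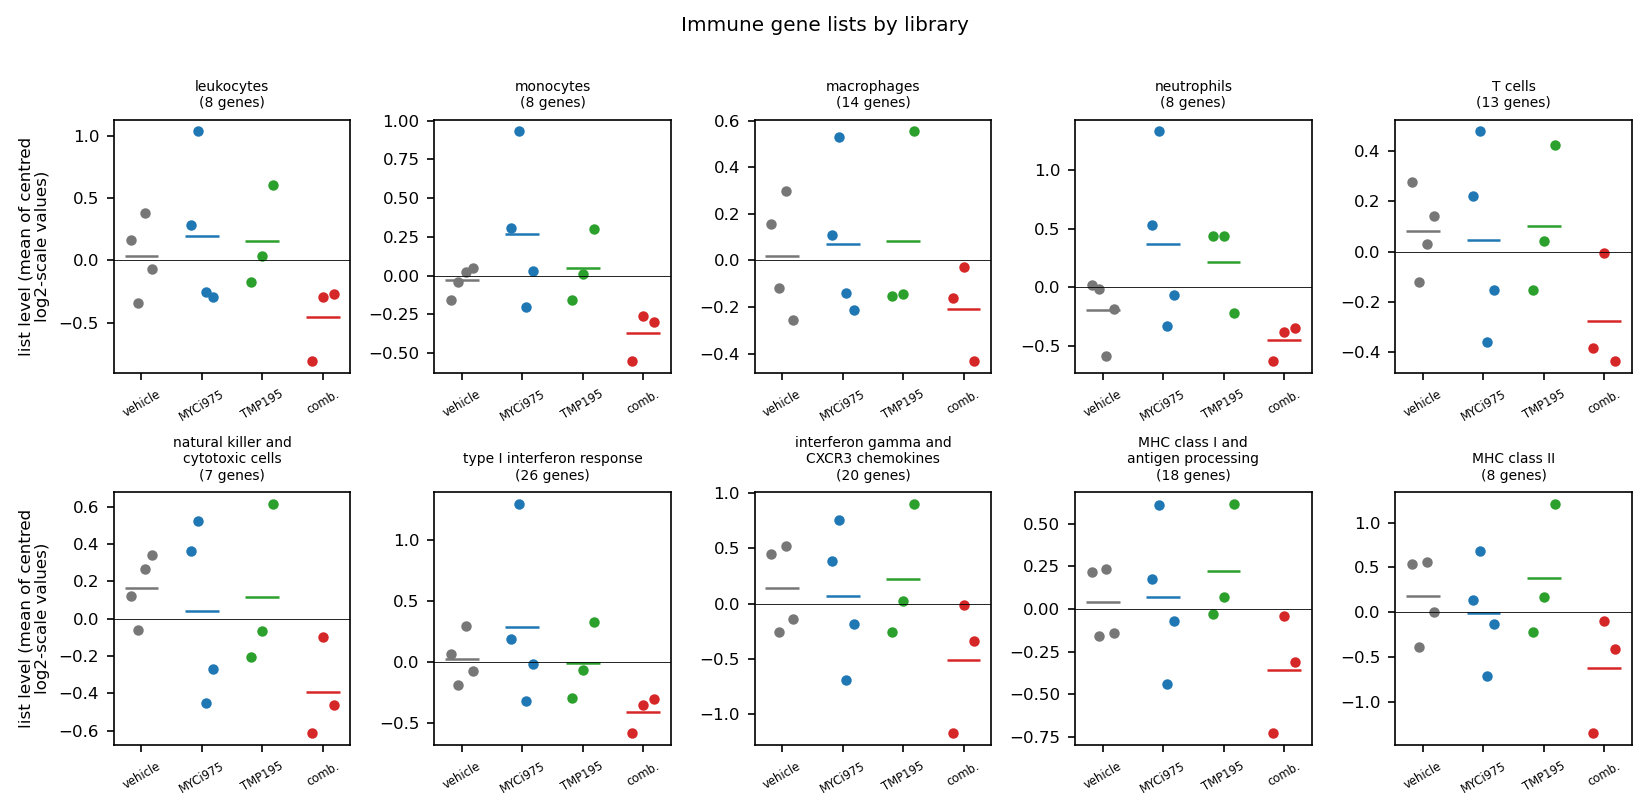
List level in each library (vertical axis, the mean over the list's genes of log2-scale values centred on each gene's mean over the 14 libraries) for 10 immune gene lists, with a bar at each group mean. Combination replicate 1 is the lowest combination library in 8 of the lists shown, the exceptions being T cells and macrophages, and MYCi975 replicate 2 is the highest MYCi975 library in all of them.

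The transcripts of the drug targets did not separate. Myc was 8.69, 9.05, 9.27 and 8.86 in the vehicle libraries and 8.98, 9.11 and 9.11 in the combination libraries, a difference of 0.10 (-0.23 to 0.43), and Max differed by 0.06 (-0.26 to 0.38). Hdac4, Hdac5, Hdac7 and Hdac9 differed by 0.13, 0.14, 0.16 and 0.18, with every interval including 0. The compounds act on proteins, whose activity was not measured. Among 40 MYC-responsive genes, 21 were below 0 (18 after centring each library on its median), the median was -0.006 (0.004 after that centring, and of either sign with single libraries left out, from -0.066 without vehicle replicate 1 to 0.065 without vehicle replicate 3), and 2 (5%) were separated in each direction, against 2.8% higher and 3.27% lower of all genes. Those separated lower numbered 7 without vehicle replicate 1 and 5 without combination replicate 2 or 3. Cad, the enzyme that starts pyrimidine synthesis, was higher at 8.90, 8.62, 9.10 and 9.06 in the vehicle libraries and 9.19, 9.57 and 9.38 in the combination libraries, and Odc1, which starts polyamine synthesis, was higher at 10.91, 10.95, 10.85 and 10.88 in the vehicle libraries and 10.98, 11.22 and 11.33 in the combination libraries. Tfam, which packages and transcribes mitochondrial DNA, was lower, with 7.69, 7.70, 7.62 and 8.45 with vehicle and 7.51, 7.33 and 7.54 with the combination. Ddx21, a helicase of ribosome assembly, was lower at 10.19, 10.26, 10.18 and 10.21 in the vehicle libraries and 9.88, 10.03 and 10.13 in the combination libraries. The directions of these 4 genes differed within 1 list. Of 7 class IIa deacetylase and MEF2 genes, 0 were separated (1 higher without vehicle replicate 1 or combination replicate 2). The median was 0.13, and 0.02 without combination replicate 1 or vehicle replicate 2 and 0.07 without vehicle replicate 4.

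Mitochondrial genes were included because the title of the series names mitochondrial dysfunction. All 13 genes of the mitochondrial genome were below 0 (median -0.49, and 11 of 13 below 0 after quantile normalization), but 0 were separated (1 without combination replicate 1). mt-Co1, a subunit of complex IV, was 17.59, 18.21, 17.27 and 18.93 in the vehicle libraries and 18.35, 17.61 and 16.94 in the combination libraries. mt-Nd4, a subunit of complex I, was 15.22, 16.07, 15.10 and 17.03 in the vehicle libraries and 16.11, 15.40 and 14.53 in the combination libraries. Vehicle replicate 4 and combination replicate 3 lay at opposite ends, and combination replicate 1 was above 3 of the 4 vehicle libraries for mt-Nd4. The median was -0.09 without combination replicate 3, -0.14 without vehicle replicate 4 and -0.85 without combination replicate 1. Nuclear genes of complex I had 30 of 37 below 0 (median -0.13, 27 after quantile normalization) and 2 separated lower (5.41%, against 3.27% of all genes), Ndufb11 and Ndufa10. That median was -0.085 without combination replicate 1, and the separated genes numbered 6 without vehicle replicate 1 and 4 without combination replicate 2. Complexes II to V had 29 of 38 below 0 (median -0.10) and 2 separated lower (5.26%). Without combination replicate 2 the median was -0.18 and without vehicle replicate 1 -0.16, each with 8 separated lower, and 4 were without combination replicate 3. The 2 with all libraries were Sdhc, an anchor of succinate dehydrogenase, at 7.79, 7.72, 7.88 and 7.88 in the vehicle libraries and 7.61, 7.63 and 7.65 in the combination libraries, and Atp5l, a subunit of ATP synthase, at 7.83, 8.20, 8.47 and 8.52 in the vehicle libraries and 7.65, 7.57 and 7.64 in the combination libraries. Mitochondrial ribosomal proteins had 46 of 77 below 0 (median -0.04), with Mrpl50, Mrpl35 and Mrps16 separated lower (3.9%, near the 3.27% of all genes). This median ran from -0.095 without vehicle replicate 1 or combination replicate 2 to -0.013 without vehicle replicate 2, and the genes separated lower numbered 9 without combination replicate 1, 6 without vehicle replicate 1 or combination replicate 2, and 5 without combination replicate 3. Mrpl35 was 8.20, 8.52, 8.58 and 8.21 in the vehicle libraries and 7.68, 8.10 and 8.08 in the combination libraries. Nrf1, a transcription factor of respiratory genes, was separated lower by 0.02 at its nearest libraries (7.97, 7.87, 7.81 and 7.83 in the vehicle libraries and 7.77, 7.79 and 7.72 in the combination libraries). Its list, mitochondrial fusion, fission, turnover and biogenesis, gave no single direction, with 10 of 19 genes above 0 and a median of 0.004. That median ran from -0.032 without combination replicate 3 to 0.044 without vehicle replicate 4. Tfam and Nrf1 were its 2 separated genes, both lower (10.5%, against 3.27% of all genes).

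Stromal lists did not share a direction. Of 25 collagen and matrix genes, 19 were above 0 (median 0.18, -0.005 without vehicle replicate 1, -0.002 without combination replicate 1 and 0.06 without vehicle replicate 3), and of 11 fibroblast markers 7 were above 0 (median 0.23, and 0.02 without vehicle replicate 1), with 0 separated in either. Of 6 markers of pericytes and smooth muscle, 5 were below 0 (median -0.15, and -0.265 without combination replicate 2) and 0 were separated. Pdgfra, a growth factor receptor of fibroblasts, was 9.70, 9.96, 9.43 and 9.46 in the vehicle libraries and 10.68, 10.05 and 9.86 in the combination libraries. Dcn, the proteoglycan decorin, was 10.53, 11.03, 10.53 and 11.25 in the vehicle libraries and 11.26, 11.34 and 11.17 in the combination libraries. Vehicle replicate 2 overlapped the combination for Pdgfra and vehicle replicate 4 for Dcn. Skeletal muscle markers, which can come from tissue beside the tumour, were below 0 in 5 of 5 genes kept (median -0.99, from -1.59 without vehicle replicate 4 to -0.34 without vehicle replicate 3, and -0.57 without combination replicate 3). Neb, which encodes the thin-filament protein nebulin, was 5.38, 6.48, 8.65 and 5.14 in the vehicle libraries and 5.86, 5.56 and 5.50 in the combination libraries, with vehicle replicate 3 the highest of the 7 libraries.

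In lists of proliferation, stress and metabolism the separated members numbered 0 to 2 each, and the shares are to be read against 2.8% higher and 3.27% lower of all genes. DNA replication had 1 of 36 genes (2.78%) separated lower, Pola1, the catalytic subunit of DNA polymerase alpha (9.22, 8.81, 9.01 and 9.13 in the vehicle libraries and 8.69, 8.75 and 8.71 in the combination libraries). Mitosis and spindle had Aurkb, the kinase Aurora B, separated higher (7.08, 6.94, 7.01 and 6.63 in the vehicle libraries and 7.19, 7.33 and 7.11 in the combination libraries) and Nuf2, a kinetochore protein, separated lower with nearest libraries equal at that precision (8.26, 8.03, 8.20 and 8.24 in the vehicle libraries and 7.88, 7.82 and 8.03 in the combination libraries) (1 of 36 each, 2.78%). Without vehicle replicate 3, 4 mitotic genes were separated higher, and without vehicle replicate 1 or combination replicate 2, 3 replication genes were separated lower. Cytosolic ribosomal proteins had 0 of 77 separated, with a median of 0.005 that ran from -0.21 without combination replicate 2 to 0.25 without combination replicate 3. Glycolysis had 0 of 21 and the hypoxia response 0 of 24 separated, although without combination replicate 3 these were 5 and 4 lower. Of 20 genes of NRF2 and glutathione metabolism, 15 were below 0 and 2 (10%) were separated lower, the peroxidases Prdx1 (-0.15) and Gpx4 (-0.37), and 9 were without combination replicate 3. Fatty acid metabolism had Srebf1, a factor of lipid synthesis (0.44), and Acadvl, an oxidation enzyme (0.27), separated higher of 21 (9.52%), and 4 were without combination replicate 2. In the BCL2 family, Bcl2a1b, a survival protein of leukocytes (-0.62), and Bak1, a pore-forming killer protein (-0.20), were both separated lower of 16 (12.5%), and 6 were without vehicle replicate 2 and 4 without combination replicate 2. In the list of the epithelial-mesenchymal state, Krt18, an epithelial keratin, was separated higher (1 of 13, 7.69%, with 3 without vehicle replicate 2 and 4 without combination replicate 2) with nearest libraries equal at the precision printed (8.04, 8.69, 8.41 and 8.11 in the vehicle libraries and 8.82, 8.69 and 8.88 in the combination libraries), and in that of transforming growth factor beta response Id2 (-0.56) and Tgfbi (-0.37) were separated lower (2 of 19, 10.5%).

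**Figure D4:**
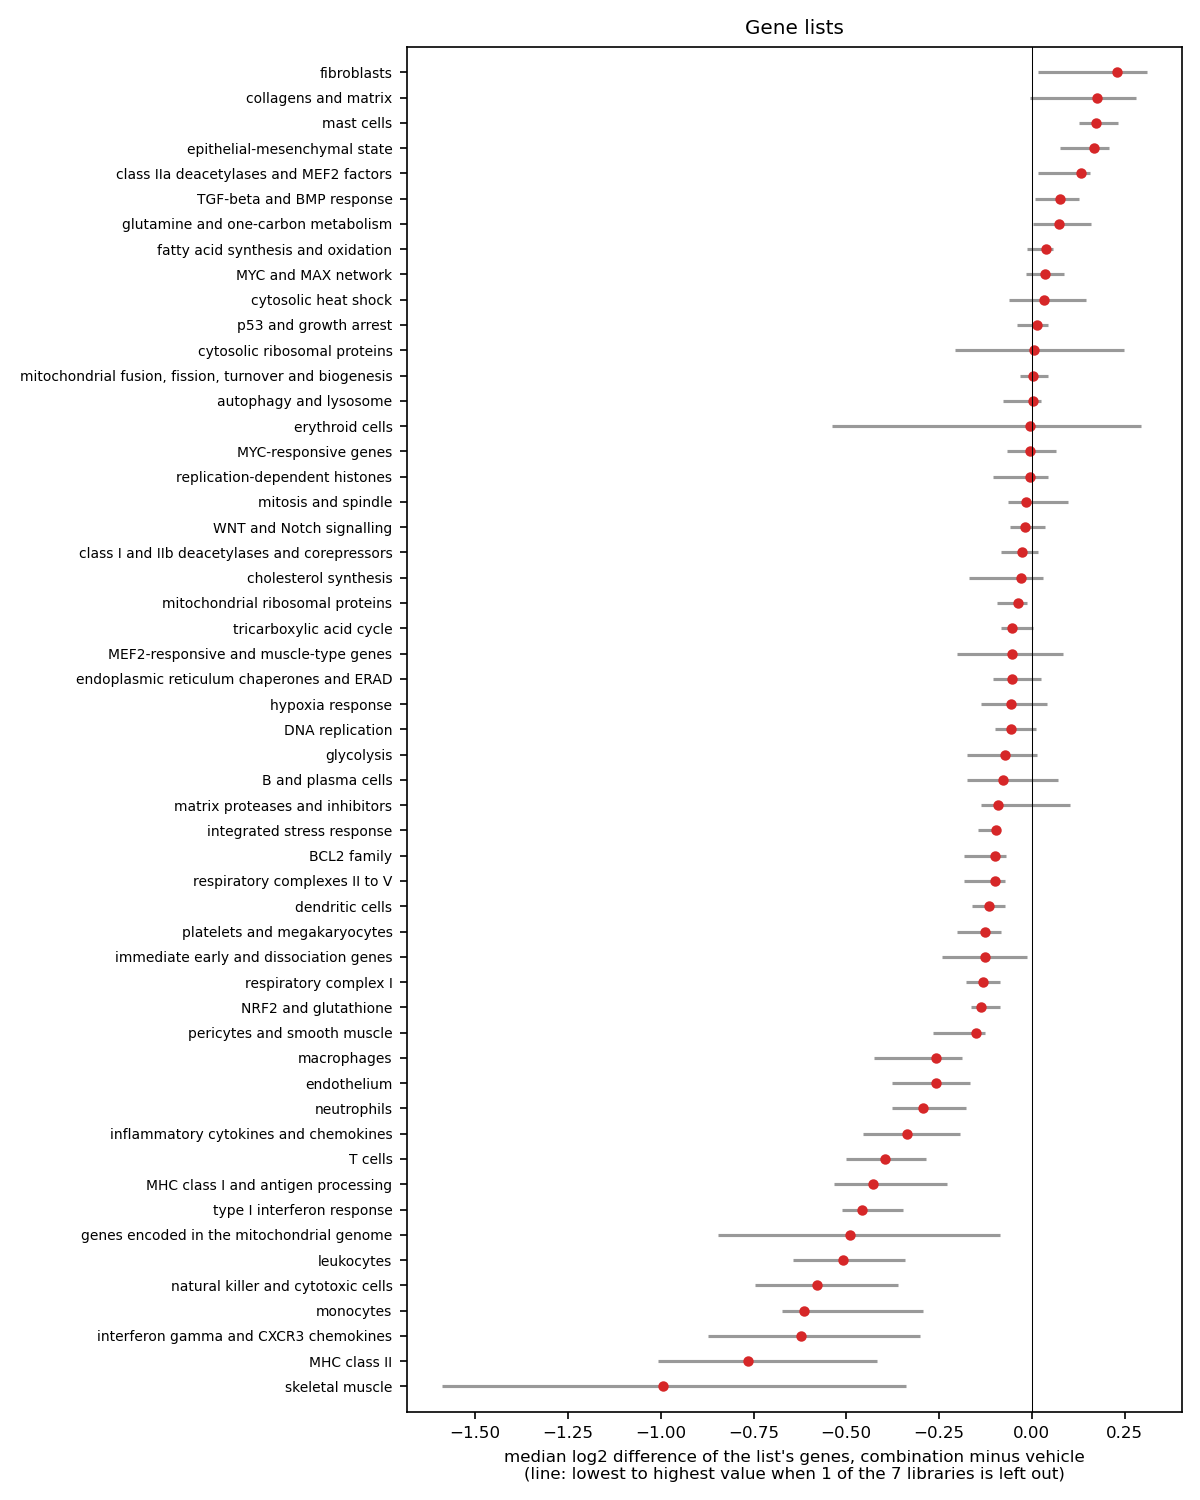
Median log2 difference of the combination from vehicle (horizontal axis) for each gene list with at least 3 genes kept, as a red point, with a grey line from the lowest to the highest median when 1 of the 7 libraries is left out. Skeletal muscle (-0.99), MHC class II (-0.77) and interferon gamma (-0.62) lie lowest with long lines, while type I interferon (-0.46) spans -0.51 to -0.35.

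The combination was also set beside the single agents. All comparisons with vehicle share the vehicle libraries, so their values are given side by side and no agreement between them is read. Genes separated from vehicle numbered 238 (1.74%) in the MYCi975 group, 585 (4.27%) in the TMP195 group and 833 (6.08%) in the combination group. These counts are not on equal terms, since 4 libraries are harder to separate from 4 than 3 are. For groups of these sizes that do not differ, the single-agent shares lie below the share that arises by chance. The share of the combination lies near it, so the order of the counts is not read as an order of effects. The combination was tested against each single agent, and the interaction term asked whether it differed from the sum of the single-agent differences. In limma 0 genes passed in any of these, with smallest adjusted p of 0.611 against MYCi975, 0.998 against TMP195 and 0.911 for the interaction. An unadjusted p under 0.05 was held by 1120 genes (8.17%) against MYCi975, 603 (4.4%) against TMP195 and 656 (4.78%) for the interaction. The share against MYCi975 lay above the share of 0.05 that chance gives on average, and the others lay below it. Of the genes kept, 60 (0.438%) lay higher and 61 (0.445%) lower in all 3 combination libraries than in all 11 others. For libraries that do not differ, chance gives smaller shares than these on average. Genes vary together, however, and neither excess was tested.

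Among the genes outside all 11 other libraries, the 5 lower ones with the widest gap were Clec4a3, Herc6, Trem1, Milr1 and Nr1h3. Clec4a3 was 6.88, 7.61, 6.56 and 6.68 with MYCi975 and 6.64, 6.61 and 7.46 with TMP195, all at least 0.36 above the highest combination library. Milr1, an inhibitory receptor of mast cells and other myeloid cells, was 6.94, 6.54, 7.20 and 6.92 in the vehicle libraries and 5.73, 6.21 and 6.23 in the combination libraries, with 6.61, 7.63, 6.47 and 6.62 for MYCi975 and 6.69, 6.98 and 7.47 for TMP195. Nr1h3, the oxysterol receptor LXR alpha, was 6.16, 5.88, 6.08 and 5.55 in the vehicle libraries and 5.33, 5.27 and 5.33 in the combination libraries, with 5.68, 6.04, 5.77 and 5.58 for MYCi975 and 5.57, 5.65 and 6.60 for TMP195. The interaction was -1.04 for Clec4a3, -0.92 for Milr1 and -0.48 for Nr1h3, each with a limma adjusted p of 0.911. The choice of these genes fixed their place below both single-agent groups, so it is no finding, and the interaction passed for none of them.

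The 5 higher ones were Git1, Nek3, Kdm8, Alg8 and Ano3. Git1, a scaffold that switches off ARF proteins, was 8.32, 8.37, 8.28 and 7.99 in the vehicle libraries and 8.80, 8.81 and 8.61 in the combination libraries, with 8.22, 8.08, 8.34 and 8.12 for MYCi975 and 8.30, 8.24 and 8.30 for TMP195. Its interaction was 0.51 (limma adjusted p = 0.911). Ano3, a membrane protein of the anoctamin family, was 5.24, 5.71, 5.43 and 5.84 in the vehicle libraries and 6.32, 5.95 and 6.01 in the combination libraries, with 5.30, 5.42 and 5.37 for TMP195 and 5.31, 5.61, 5.85 and 5.15 for MYCi975. Kdm8, a hydroxylase (0.26), and Alg8, a glucosyltransferase of N-glycan assembly (0.36), had smaller differences from vehicle than Git1 (0.50) and Ano3 (0.54). Kdm8 agreed within 0.01 over the combination libraries.

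Single-agent means stand beside the combination for further separated genes. The mean difference of Mrc2 was 0.10 for MYCi975, 0.75 for TMP195 and 0.81 for the combination. Hmgn5 differed by -0.03, -0.53 and -0.57, and Pax9 by 0.27, 0.55 and 0.46. For Pik3ip1 these values were -0.44, -0.19 and -0.53. Chil3 differed by 0.81, -0.38 and -0.61, and Trem1 by 0.48, 0.10 and -0.57. In Chil3 and Trem1 MYCi975 replicate 2 was the highest of all 14 libraries (9.55 and 9.14). For the type I interferon list the median was 0.26 under MYCi975, -0.03 under TMP195 and -0.46 under both, and that of neutrophil markers 0.56, 0.40 and -0.29. The MYCi975 values rest largely on replicate 2. The type I list level was 0.186, 1.294, -0.316 and -0.012 over the MYCi975 libraries against a vehicle mean of 0.027, and that of neutrophil markers 0.533, 1.328, -0.332 and -0.065 against -0.191.

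**Figure D5:**
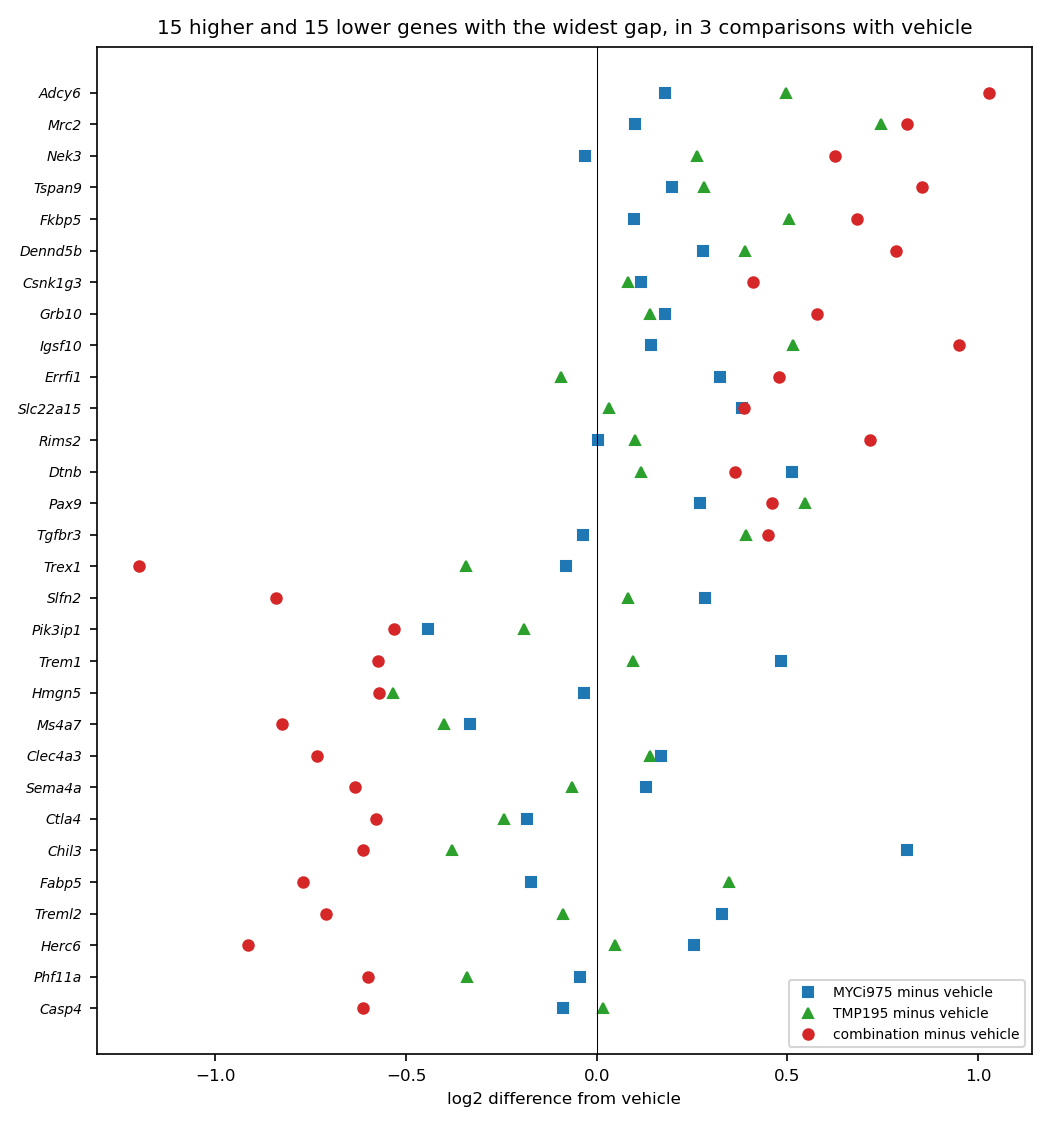
Log2 difference from vehicle (horizontal axis) with MYCi975 (squares), TMP195 (triangles) and the combination (circles) for the 15 higher and 15 lower genes with the widest gap between combination and vehicle. The genes were chosen by the combination, so the size of the circles' distance from 0 is not read against the other symbols. The TMP195 triangle and the circle of Mrc2 lie at 0.75 and 0.81, and the MYCi975 square of Chil3 lies on the opposite side of 0 from its circle (0.81 and -0.61).

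Neighbouring genes were looked at along the chromosomes, with the gene order of RefSeq for 12175 of the genes kept. Of the 423 genes separated lower that could be placed, 62 stood beside another such gene, in 28 runs, and of the 341 separated higher 26 did, in 13 runs. Some separated genes stand together by chance, and the number to expect was not computed. Runs of 3 or more numbered 5 among the lower and 0 among the higher genes. The longest held the C-type lectin receptors Clec4a3, Clec4a2, Clec4n and Clec4d, which sense microbes and damage on myeloid cells. Their means were 6.76 with vehicle and 6.03 with the combination for Clec4a3, 7.79 with vehicle and 7.21 with the combination for Clec4a2, 8.32 with vehicle and 7.52 with the combination for Clec4n, and 7.90 with vehicle and 7.28 with the combination for Clec4d. Clec4n, known as dectin-2, showed the largest difference of the 4 at -0.79.

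The other runs were Trem1 with A530064D06Rik and Trem3, Ifit2 with Ifit3 and Ifit1bl1, the nuclear body genes Sp110, Sp140 and Sp100, and L1cam with Arhgap4 and Naa10. Trem3, a receptor of the same family as Trem1, averaged 5.37 with vehicle and 5.08 with the combination. Sp140, a chromatin reader of leukocytes, averaged 7.98 with vehicle and 7.32 with the combination, and Ifit1bl1 5.85 with vehicle and 5.28 with the combination. Pairs included Oasl2 with Oasl1, Phf11a with Phf11b, and Ms4a7 with Ms4a4a. Among higher genes the pairs included Trpm3 with Klf9, a transcription factor that glucocorticoids induce (8.33 with vehicle and 8.88 with the combination, means), and Pax9 with Slc25a21. Of the runs of 3 or more, all but that of L1cam hold members of 1 gene family, which can share reads, and no run was tested.

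The libraries differed in ways that cross the groups. Genes at the floor numbered 880 to 2744 over the vehicle and 892 to 2158 over the combination libraries, of 21152. Of 8 lung epithelial markers 1 was in the table and 0 were kept, while leukocyte markers were kept in 8 of 8, in libraries whose protocol names an enriched tumour population. Y-linked genes varied between libraries. Eif2s3y was 7.17, 4.05, 6.84 and 4.05 in the vehicle libraries and 6.63, 4.05 and 4.05 in the combination libraries, so vehicle replicates 1 and 3 and combination replicate 1 carried it and the others were at the floor. With the Y-linked level as a term, a choice made after seeing the data, 0 genes passed in limma (513 at an unadjusted p under 0.05), and the list medians were -0.36 for type I interferon, -0.56 for interferon gamma, -0.74 for MHC class II and -0.54 for monocytes. MYCi975 replicate 2 stood apart in immune genes, with a leukocyte list level of 1.04. It enters the comparison with vehicle through the shared spread and through the filter on the mean over all 14 libraries. It also enters the list levels through their centring.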

How the data were processed

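RNA was measured in 14 libraries of LLC1 tumours. The authors deposited 1 table of 21152 genes, whose title names a variance-stabilising transformation and whose values lie on a log2 scale. The transforming software was not given in the sources used here. Libraries were made with a stranded total RNA kit per the labels' protocols. Quantification used Salmon per the submitters' processing notes, which give no version and list the human build hg38, while the gene IDs are mouse Ensembl IDs, so the build is not settled and no coordinates of the table are printed. Counts could not be recovered and the depth is unknown, so no count model was used. Of the IDs, 20264 (95.8%) matched a mouse symbol and 888 did not. Per-library values were only compared within this table.

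Genes with a mean over all 14 libraries above the floor of 4.047 plus 1 were kept. With limma 3.58.1 (R 4.3.3) each gene got 1 mean for each group from all 14 libraries, under trended empirical Bayes moderation (10 residual and a median of 5.275 prior degrees of freedom), two-sided, with Benjamini-Hochberg adjustment over 13711 genes. Intervals are 95% limma intervals, not adjusted. The fit was tested on simulated data. Separation was a strict count with no test. Gene lists were described by counts and medians. The comparison, the gene lists and the tests were chosen with earlier results of these data known. Genes were named by a rule: the 15 widest gaps in each direction, up to 3 separated members of each list with the widest gap, the 5 smallest p in each direction, the 5 widest gaps to all 11 other libraries in each direction, and always Myc, Max, Hdac4, Hdac5, Hdac7, Hdac9 and Ptprc. Predicted genes, clone names, pseudogenes and Y-linked genes were left out of it. A few genes are not reported here. Further list members, neighbours and genes with differences beyond 1 were named after their values were seen. Families with near-identical copies (Ifit, Oas, H2, Gbp, Clec4, Phf11, Bcl2a1, histones) are uncertain as single genes. Figures were drawn with matplotlib 3.10.9 in Python 3.11.15.

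Alternatives were no filter, a filter of 2 above the floor, no trend, robust moderation, median centring, quantile normalization, library weights, only the 7 libraries compared, the replicate number as a block, wider gaps, leaving out each library in turn and, added later, the Y-linked level as a term.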

Additional observations from a re-analysis of the deposited data

Results flagged for a closer look

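Single vehicle libraries that stood apart from the other 3 were looked for in the named genes and gene lists by the gap to the nearest library relative to the whole range (Dixon's test). Chance flags about 1 in 20 such groups, and 6 of 156 were picked out here. Errfi1 was 9.92 in vehicle replicate 1, and Tgfbr3 was 11.16 in vehicle replicate 3. Tfam, the mitochondrial DNA packaging factor, was 8.44 in vehicle replicate 4, while the other vehicle libraries lay within 0.09 of one another. Dll4, a Notch ligand, was 5.25 in vehicle replicate 4. Ccr2 was 9.26 in vehicle replicate 2, which sets the narrow gap between its groups. The list level of the BCL2 family was -0.118 in vehicle replicate 2.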

How the results depend on the processing

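In limma 0 genes passed in the 4 contrasts under every alternative run. Against vehicle, 470 genes had an unadjusted p under 0.05, with 725 without a filter, 769 with library weights, 856 with only the 7 libraries compared, 557 with the replicate block, and 234 (without combination replicate 1) to 725 (without MYCi975 replicate 2) when a library was left out. Separated higher were 384 genes, with 591 without a filter, 123 at a gap of 0.1, 20 at a gap of 0.25, and 595 to 1096 when 1 of the 7 libraries was left out. Separated lower were 449, with 150 and 27 at these gaps and 651 to 1146 when a library was left out. These counts grow with fewer libraries by construction. The share of separated genes that were lower was 53.9%, 49.6% after median centring (420 higher, 414 lower) and 46.3% after quantile normalization (463 higher, 399 lower), so the balance of directions depends on scaling.

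The difference of Max was -0.031 with the replicate block and ran from -0.028 (without vehicle replicate 4) to 0.119 (without vehicle replicate 3) when a library was left out, and that of Hdac9 from -0.062 (without combination replicate 1) to 0.343 (without combination replicate 3), against 0.06 and 0.18 with all libraries. The cause was not tested. Of the alternative values of list medians, 9 moved by more than the spread between libraries and 1285 did not. With a filter of 2 above the floor no T cell or mast cell marker was left. Same-numbered vehicle and combination libraries correlated at -0.064, 0.039 and 0.187 in their deviations from the group means. Differently numbered ones ran from -0.193 to 0.167. The labels do not say whether the numbers pair samples, and these few values cannot settle it. The number of libraries, 3 against 4, and the unknown depth limit what could be detected.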

Other observations

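Some separated genes outside the naming rule, chosen after their values were seen, had large differences. Ikzf3, the lymphoid transcription factor Aiolos, averaged 6.15 with vehicle and 5.17 with the combination (difference -0.98, limma adjusted p = 0.992). Tef, a transcription factor of circadian output, averaged 6.92 with vehicle and 7.91 with the combination (difference 0.997, limma adjusted p = 0.992), with nearest libraries 0.0076 apart.

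Capn5, a calpain protease, was 5.64, 5.70, 5.70 and 5.42 in the vehicle libraries and 4.69, 5.17 and 4.99 in the combination libraries. Fam217b was 6.18, 5.62, 5.82 and 5.45 in the vehicle libraries and 5.01, 5.31 and 5.02 in the combination libraries. Both were separated lower and were among the smallest p of the lower genes (limma adjusted p = 0.992).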
